A study of Homo sapiens with 2 samples.

Results

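The Kruppel-like factors (KLFs) described here are 10 genes, KLF2, KLF3, KLF4, KLF5, KLF6, KLF7, KLF9, KLF10, KLF11 and KLF13. They were found as every probe set that the platform annotation assigns to exactly 1 of these genes, which gave 32 of 41091 probe sets with 1 gene, and 10 of 19775 genes. RNA came from the established human triple-negative breast cancer line MDA-MB-231, 48 h after transfection with DharmaFECT reagent and either control siRNA (siCon) or siRNA against KMO (siKMO), the gene of kynurenine 3-monooxygenase, a mitochondrial enzyme of tryptophan breakdown. Each condition was measured on 1 Affymetrix U133 Plus 2.0 array, so there are no replicates, no test between conditions was possible, and every difference below describes this pair of cultures. The titles and protocols name siRNA and set the groups here, although the names of the arrays contain shLUC and shK421, a style of name common for short hairpin vectors.

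KLFs are transcription factors that bind GC-rich and CACCC sequences through a carboxy-terminal domain of C2H2 zinc fingers that is much alike in the whole family. Their amino-terminal parts differ and set the cofactors they use. KLF2, KLF4, KLF5, KLF6 and KLF7 act mainly with histone acetyltransferases as activators, KLF3 recruits the corepressor CtBP, and KLF9, KLF10, KLF11 and KLF13 bind the corepressor Sin3. Several KLF genes are induced quickly by serum, growth factors, hormones or TGF-beta, and in breast and other epithelia they are known for their parts in proliferation, differentiation and the epithelial state.

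The start regions of 4 members are shown, namely the gene with the largest difference (KLF9), KLF4, KLF6 and KLF2. KLF4, KLF6 and KLF2 were lower with every probe set, as were KLF3, KLF5 and KLF10. KLF2 had the smallest difference of the 4 shown (-0.15). Each line is the 250 bases before the RefSeq start in GRCh38.p14, read 5′ to 3′ on the gene's strand, with the intervals chr9:70414658-70414907 (minus strand), chr9:107489770-107490019 (minus), chr10:3785210-3785459 (minus) and chr19:16324576-16324825 (plus). Capitals mark matches on either strand to the GC box GGGCGG, to TGACG, which is the first part of the cyclic AMP response element TGACGTCA, and to the E-box CACGTG.
KLF9: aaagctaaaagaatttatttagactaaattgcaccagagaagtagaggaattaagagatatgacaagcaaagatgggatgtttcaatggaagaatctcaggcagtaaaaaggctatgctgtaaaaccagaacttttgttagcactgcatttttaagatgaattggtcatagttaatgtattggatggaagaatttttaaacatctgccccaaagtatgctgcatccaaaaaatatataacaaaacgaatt
KLF4: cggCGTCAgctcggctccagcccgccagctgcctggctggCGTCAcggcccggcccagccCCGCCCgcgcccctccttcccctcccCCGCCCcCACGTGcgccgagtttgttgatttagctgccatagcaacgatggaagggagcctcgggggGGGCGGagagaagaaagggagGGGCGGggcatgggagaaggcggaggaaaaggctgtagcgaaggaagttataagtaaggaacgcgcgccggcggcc
KLF6: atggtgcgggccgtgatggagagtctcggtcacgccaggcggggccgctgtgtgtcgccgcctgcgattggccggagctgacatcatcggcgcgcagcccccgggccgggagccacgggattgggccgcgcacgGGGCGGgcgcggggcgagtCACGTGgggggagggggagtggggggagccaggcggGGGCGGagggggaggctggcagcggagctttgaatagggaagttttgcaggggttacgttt
KLF2: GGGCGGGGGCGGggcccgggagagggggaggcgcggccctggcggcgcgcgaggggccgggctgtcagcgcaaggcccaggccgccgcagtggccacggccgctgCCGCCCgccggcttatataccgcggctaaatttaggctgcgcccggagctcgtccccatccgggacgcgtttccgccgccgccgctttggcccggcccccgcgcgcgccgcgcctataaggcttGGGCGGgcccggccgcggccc
The KLF9 window held none of the motifs searched and had a GC content of 32.4%, against a median of 58% over the 35116 windows of the table. The KLF4 window, at 69.2% GC, held 4 GC boxes, 2 TGACG matches and 1 E-box, the KLF6 window, at 72.4% GC, held 2 GC boxes and 1 E-box, and the KLF2 window, at 80% GC, held 4 GC boxes. Of all windows, 42.6% held a GC box, 21.2% TGACG and 6.34% CACGTG. Windows were at hand for 8 of the 10 members, 13 windows in all. In at least 1 window, 7 of these members had a GC box, 4 of 8 an E-box, 4 of 8 TGACG and 4 of 8 CACCC, which 54.7% of all windows held. Some members have more than 1 window in which a match can occur. Counts over members are therefore not directly comparable with shares over single windows. The CArG box, the site of serum response factor, was searched as CCWWWWWWGG, where W is A or T. The full TGACGTCA (1.65% of windows), TATAAA (10.7%) and the CArG box (1.16%) each occurred in 1 member, in the order KLF11, KLF5 and KLF7. A match is a description of letters and not of a bound site.

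Most KLF transcripts were lower in the siKMO array. Levels are values of robust multi-array averaging (RMA) on the log2 scale, where a difference of 1 is 2-fold, and differences are siKMO minus siCon. The probe set that was strongest on average across the arrays stands for its gene, and the gene counts as measured where that average is at least 6; all 10 members were measured, among 8997 genes. Of the 10, 8 were lower and 2 higher in the siKMO array, against 44.1% of all measured genes that were lower. The members were chosen with earlier results of these data known, so this comparison is a description and not a test. The median difference of the members was -0.31, and that of all measured genes was 0.04. KLF9 and KLF10 were lower by at least 1.5-fold, where 5.41% of all measured genes were, and KLF9 alone by at least 2-fold, where 1.39% were; 0 members were higher by 1.5-fold, where 5.19% of all genes were. Over single probe sets that average at least 6, 15 of the 17 member probe sets were lower, against 44.3% of all such probe sets with 1 gene.

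**Figure D1:**
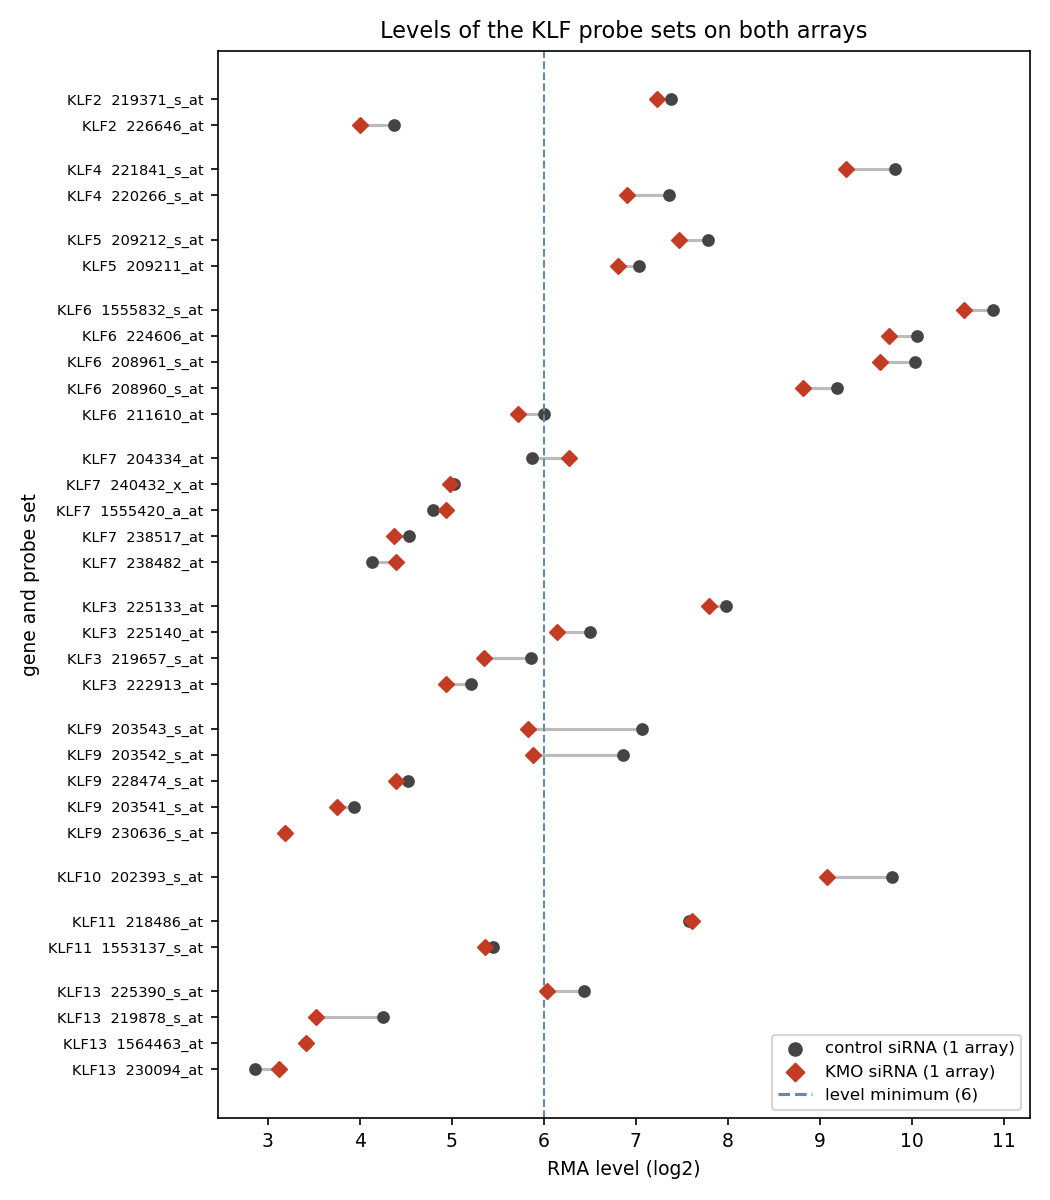
RMA levels (log2, x axis) of all 32 KLF probe sets (rows, grouped by gene) on the control siRNA array (dark circles) and the KMO siRNA array (red diamonds), 1 array each, with the level minimum of 6 as a dashed line. Both upper KLF9 probe sets lie at 7.07 and 6.86 in siCon and just under 6 with KMO siRNA, and all 5 KLF6 probe sets differ by -0.38 to -0.28.

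Probe sets of a gene read the same RNA sample, so they check the measurement of a transcript and not the treatment. Of the members, 5 had 2 or more measured probe sets, KLF3, KLF4, KLF5, KLF6 and KLF9, and in all 5 genes every such probe set was lower. Among all 3777 genes with 2 or more such probe sets, 31.2% had all of them lower. Many member probe sets carry the suffix _s_at, which Affymetrix gives to probes shared by more than 1 transcript, so splice forms are not told apart.

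Among the activators, KLF4 had the largest difference. KLF4, a factor of epithelial differentiation and one of the classical reprogramming factors, stood at 9.81 in siCon and 9.28 in siKMO, a 1.44-fold lower level, and at 7.36 and 6.90 with its other probe set (-0.46). Of all measured genes, 6.39% differed by as much or more in this direction. Both KLF4 probe sets were therefore lower by a similar amount, short of 1.5-fold.

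KLF6, a growth-inhibitory factor that many tumours splice or lose, differed less, but alike over its probe sets. Its levels were 10.88 in siCon and 10.57 in siKMO, 10.06 and 9.74, 10.04 and 9.65, and 9.19 and 8.81. The fifth probe set, under the minimum, stood at 5.998 and 5.72. All 5 were lower, by -0.38 to -0.28, and all 4 measured ones too, where 23.8% of the 467 genes with 4 or more such probe sets had all of them lower. A difference at least as low as the -0.31 of the leading probe set was shared by 14.3% of measured genes.

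KLF5, which in contrast to KLF4 is known to promote epithelial proliferation, was 7.79 in siCon and 7.47 in siKMO, and 7.04 and 6.80 with the other probe set, differences of -0.32 and -0.24. KLF2, a factor of endothelial quiescence and T cell trafficking, stood at 7.38 and 7.23, a difference of -0.15, and 27.4% of measured genes were as low or lower. Its other probe set was weak, at 4.37 and 4.01. KLF2 thus lay well within the bulk of all genes, and KLF5 nearer the lower end, at 14.0%.

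KLF7, known for its role in neuron and adipocyte development, was the only activator that was higher, and its level was close to the minimum. It stood at 5.87 in siCon and 6.27 in siKMO, higher by at least 0.27 when the control level is taken as 6 (a deposited difference of 0.39, which 12.8% of measured genes reached). The 4 other KLF7 probe sets lay under the minimum and were mixed, 2 higher and 2 lower, from -0.16 to 0.26. The direction of KLF7 rests on 1 probe set. Over the 5 activators, 4 were lower and the median difference was -0.31.

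The CtBP-binding repressor KLF3, which restrains genes that other KLFs activate, was lower with all 4 of its probe sets. Its levels were 7.98 in siCon and 7.80 in siKMO with the leading probe set (-0.18) and 6.50 and 6.15 with the other measured one (-0.35). The pair under the minimum stood at 5.86 and 5.35 and at 5.21 and 4.94. The leading probe set gave the smallest of the 4 differences, which ran to -0.51, and 24.0% of measured genes were as low as that probe set or lower.

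The Sin3-binding members spanned the widest range. KLF9, a target of glucocorticoid, progesterone and thyroid hormone receptors, was 7.07 in siCon and 5.82 in siKMO with one probe set and 6.86 and 5.88 with another. As the siKMO levels were under 6, the folds are lower bounds with 6 in their place: at least 2.10-fold and at least 1.82-fold lower. By the deposited difference of -1.25, 52 of 8997 measured genes (0.578%) were as low or lower, KLF9 included. The 3 other KLF9 probe sets were weak, between 3.19 and 4.53 in the control array, and differed by -0.17, -0.13 and 0, so 2 of 5 probe sets carry the KLF9 difference.

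KLF10, the TGF-beta-inducible early gene that represses proliferation, has 1 probe set, which was 9.78 in siCon and 9.08 in siKMO, a 1.62-fold lower level. It was well above the minimum on both arrays, and 3.72% of measured genes were as low or lower. Without a further probe set its difference has no second measurement.

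KLF11, a relative of KLF10 that is also induced by TGF-beta, did not share this direction. It stood at 7.57 and 7.61, a difference of 0.04 that equals the median of all measured genes to 2 decimals, and its weaker probe set at 5.45 and 5.36. KLF13, known as a late activator of the chemokine gene CCL5 in T cells, was 6.44 and 6.04, a difference of -0.40 close to the minimum, and 10.1% of measured genes were as low or lower. Its 3 other probe sets were weak and ran from -0.73 (4.26 and 3.53) over 0 to 0.26, so its direction rests on 1 probe set as well. Over the 4 Sin3-binding genes, 3 were lower, with a median of -0.55.

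**Figure D2:**
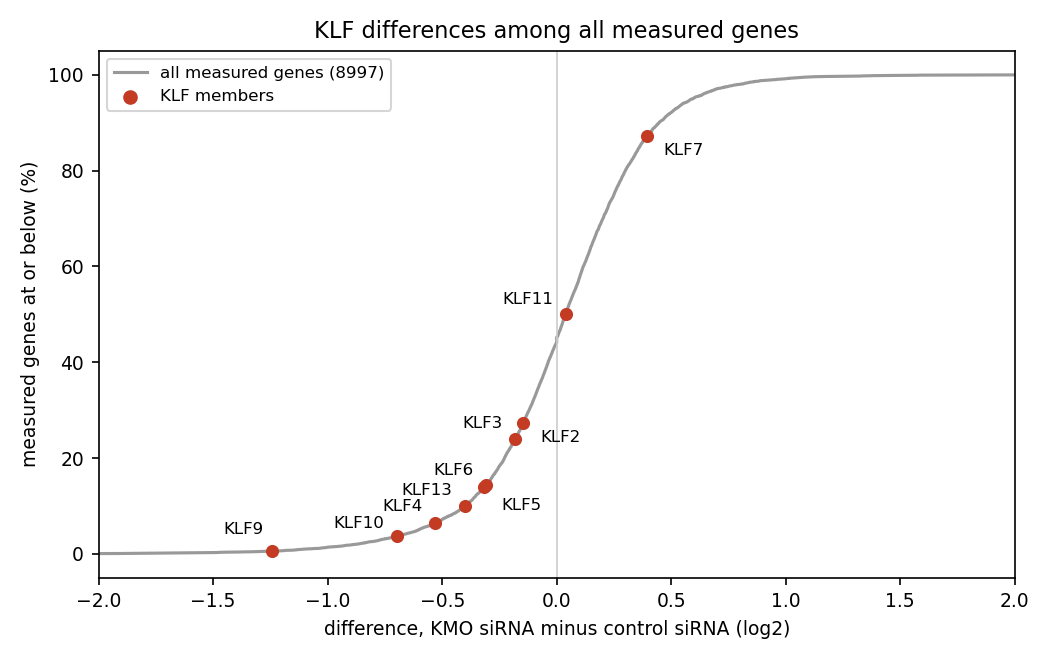
Cumulative share of the 8997 measured genes (y axis, %) at or below each difference between the KMO siRNA and the control siRNA array (x axis, log2), with the 10 KLF genes as red points; the x axis shows -2 to 2. KLF9 lies at 0.578% and KLF10 at 3.72%, KLF11 at the middle of all genes, and KLF7 alone on the upper side.

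The labelled cell line was checked with marker genes. All 6 genes that this line is known to express strongly (VIM, CD44, EGFR, AXL, CAV1 and KRT18) stood at 9.76 or above in siCon and 9.84 or above in siKMO, and ESR1 and PGR, the hormone receptors that it lacks, were under the minimum on both arrays. CDH1, the epithelial cadherin that MDA-MB-231 is usually described as lacking, stood at 10.54 in siCon and 8.62 in siKMO, against the label. Its other probe set was much weaker, at 6.95 in siCon and 5.06 in siKMO, the latter under the minimum. The surface proteins CD24 and EPCAM stood at 10.46 and 9.45 and at 8.75 and 7.85. Of the 7 genes listed as low or absent in the line, 5 were measured and all 5 were lower in siKMO, against 44.1% of all measured genes. Lower by at least 1.5-fold were 4, against 5.41% of all measured genes. ERBB3 was among these 4 (6.73 and 5.61), and ERBB2 differed by -0.07. The median was -1.01. These 5 genes moved in the same direction as 8 of the 10 KLF members. Keratins went both ways: KRT18 differed by 0.15, and KRT19, named after its value was seen, by -0.41. What part any of these markers have in the KLF differences was not tested. All markers of leukocytes and endothelium that could be read were under 6, with a highest mean of 5.74. Among the fibroblast markers, COL1A1 was above it (7.08 and 6.90), and DCN, LUM and PDGFRA were at 4.94 or under. KMO itself stood at 2.95 or under with its 3 probe sets on both arrays, so its values do not check the knockdown.

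Other KLF and SP genes, which share the finger domain, differed little. Of 16 listed, 15 had a probe set used here and 6 were measured. Lower were 5 of the 6, against 44.1% of all measured genes, 0 by 1.5-fold, with a median of -0.10. SP1, the ubiquitous activator at GC boxes, was 8.48 in siCon and 8.23 in siKMO (-0.30 to -0.25 over 2 probe sets), SP2 was 6.16 and 6.46, and SP3 9.44 and 9.42 (-0.03 to 0.21). KLF12, another CtBP-binding repressor, was 6.81 and 6.63, SP4 differed by -0.09, and KLF16, a Sin3-binding factor, was 6.06 and 5.96. None of the 6 was as low as KLF4 (-0.53), but of the members only KLF9 and KLF10 were lower than KLF4. SP1 (-0.25) differed by more than the members KLF3 (-0.18) and KLF2 (-0.15). A lower level was therefore not particular to the members.

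Cofactors and regulators of KLF proteins showed no common direction. Of 10 measured cofactors, 6 were higher and 4 lower, 0 by 1.5-fold, with a median of 0.10; the Sin3 scaffold SIN3B differed by -0.42 (7.17 and 6.74), the acetyltransferase CREBBP by 0.38 (7.91 and 8.29), and CTBP2, the partner of KLF3, by -0.35 (-0.35 to -0.04 over 5 probe sets). Of 7 measured ubiquitin ligases that act on KLF proteins, 4 were higher and 3 lower. WWP1, a ligase of KLF2 and KLF5, stood at 8.67 and 8.19 (-0.63 to -0.48 over 2 probe sets), BTRC at 6.90 and 7.29, and SMURF2 ran from -0.36 to 0.46 over 4 probe sets. KLF protein was not measured.

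Upstream regulators were split in the same way, with 5 of 11 measured genes higher, 6 lower, 0 by 1.5-fold and a median of -0.005. NR3C1, the glucocorticoid receptor, which induces KLF9, was 10.67 in siCon and 10.17 in siKMO, and all 5 of its measured probe sets were lower, by -0.57 to -0.39. The serum response cofactor ELK4 stood at 8.44 and 7.95 (-0.50 to -0.27 over 3 probe sets) and MEF2D, which with MEF2A acts below the kinase ERK5 on KLF2 and KLF4, at 6.50 and 6.13. MEF2A differed by 0.03 and serum response factor, SRF, by 0.24; both were named after their values were seen.

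Other genes that glucocorticoids induce went both ways. TSC22D3, the leucine zipper protein GILZ, was 8.32 in siCon and 7.30 in siKMO, and the phosphatase DUSP1, named after its value was seen, differed by -0.41, whereas the chaperone partner FKBP5 was 1.70-fold higher (7.82 and 8.59, 0.69 to 0.76 over 2 probe sets) and the kinase SGK1 1.66-fold higher (8.81 and 9.53). With 2 of 4 measured genes in each direction, this set gave no common sign, although 3 of the 4 differed by at least 1.5-fold.

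For TGF-beta signalling, which induces KLF10 and KLF11, 4 of 8 measured genes were higher and 4 lower, 0 by 1.5-fold, with a median of -0.08. SKIL, a feedback inhibitor of SMAD proteins, was 8.62 and 8.10, the direct target ID1 12.001 and 11.57, and the matrix protein gene TGFBI 9.78 and 10.20. The receptor TGFBR2 and the signal transducer SMAD3 were named after their values were seen. TGFBR2 differed by 0.42 (0.42 to 0.54 over 2 probe sets) and SMAD3 by -0.31 (-0.43 to -0.09 over 4).

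Genes reported as KLF targets in other cells were lower in 8 of 12 measured cases, against 44.1% of all measured genes, with a median of -0.40. The list mixes targets of different KLFs, and genes that KLFs activate with genes that they repress. Neither the count nor the median therefore has an expected sign. The list was chosen with earlier results of these data known. Its counts beside the shares of all genes are therefore a description and not a test. CDH1 is also among the cell line markers above. Of the 12, 5 were lower by at least 1.5-fold (5.41% of all measured genes) and 4 by at least 2-fold (1.39%), or 3 by 2-fold with levels under 6 taken as 6, and 1 was higher by 1.5-fold (5.19%). The genes with the largest differences were CDH1, a target of KLF4 and KLF6 (10.54 and 8.62, 3.78-fold lower), the stress-induced factor ATF3 (7.62 and 6.14, 2.78-fold lower) and THBD, the anticoagulant receptor thrombomodulin that KLF2 and KLF4 activate. The 2 measured ATF3 probe sets differed by -1.48 and -0.92, so only the leading one was lower by 2-fold. THBD stood at 8.19 and 6.72, a 2.77-fold lower level, with both probe sets lower, by -1.47 and -1.43. Other genes were picked out after their values were seen. CDKN1A, the cell cycle inhibitor p21 that KLF4 and KLF6 activate, was 8.45 and 7.72, and CCL5, the KLF13 target, was 6.68 and 5.68, a difference of -0.68 with the siKMO level taken as 6. LGALS3, a gene that KLF3 represses, stood at 11.75 and 11.38, and BIRC5, a KLF5 target, was 1.51-fold higher. These genes have many other regulators, and what part the KLFs have in their levels was not tested.

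**Figure D3:**
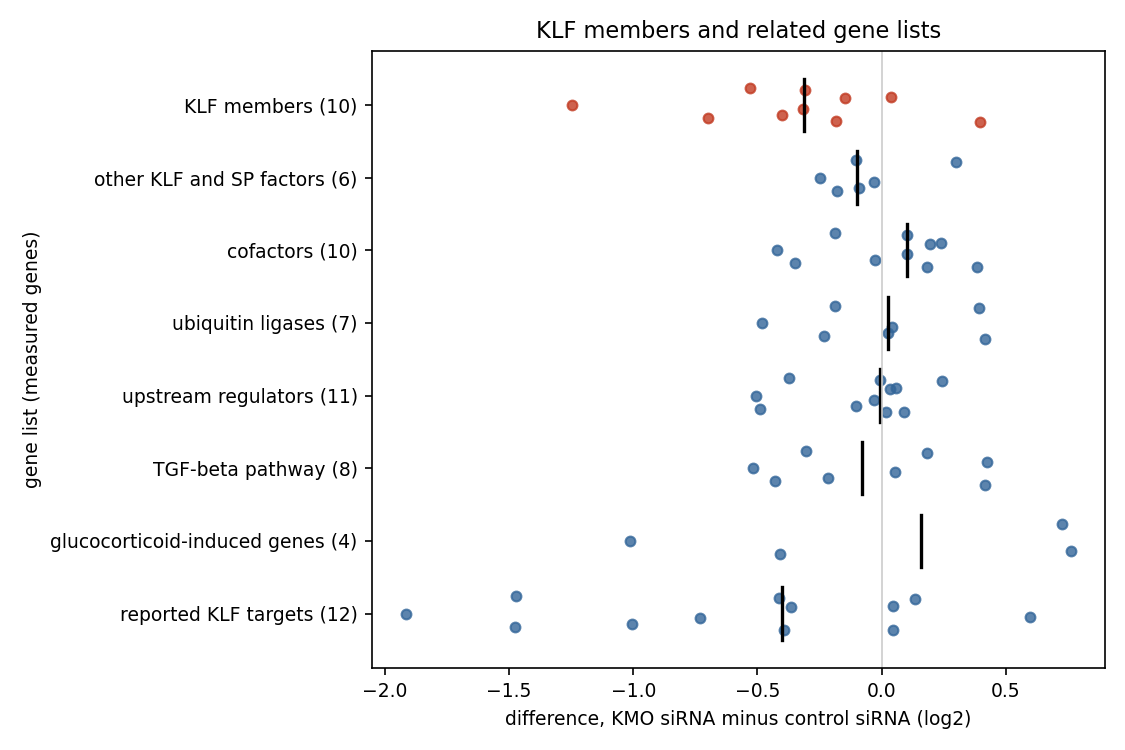
Differences between the KMO siRNA and the control siRNA array (x axis, log2) of each measured gene (points) in the 10 KLF genes (red) and 7 related lists (blue), with the number of measured genes in brackets and the median as a black bar. The medians of the KLF genes (-0.31) and of their reported targets (-0.40) lie below 0, and those of cofactors, ligases and upstream regulators lie near 0. The target list mixes genes that KLFs activate with genes that they repress.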

How the data were processed

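Per the labels, the authors deposited log2 levels made by RMA, which corrects background, quantile normalizes arrays and summarises probes, for 54675 probe sets on 2 arrays. The tool, from the submitters' processing notes, was Affymetrix Expression Console, of a version not given in the sources used here. Quantile normalization hides a shift common to all transcripts, RMA values have no true zero, and precision is limited by having 2 arrays.

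Probe sets were named from the platform annotation, with symbols updated by gene identifier through RefSeq (GRCh38.p14). Medians, differences and counts were computed in Python 3.11.15 with pandas 2.3.3 and tested on simulated data. Levels under 6 enter counts as deposited and folds as 6. Thresholds were 1.5-fold and 2-fold. All members were named with all probe sets. Of each related list, the 3 measured genes with the largest absolute difference were named, and every measured KLF or SP relative. Other genes named from the related lists are marked as chosen after their values were seen. Cell type markers did not follow this rule, and not all were given with values. With 2 arrays no likeness between genes can be computed. The members and lists were chosen with earlier results of these data known. Start regions came from RefSeq.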

Additional observations from a re-analysis of the deposited data

How the results depend on the processing

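The alternatives were the mean of all measured probe sets of a gene, a minimum level of 7, no minimum, levels under 6 taken as 6, no probe sets ending in _x_at or _s_at, and centring on the median of measured genes. Values that moved by over 0.1 (log2), or counts by over 1.5 times, count as moved. Without _x_at and _s_at probe sets only 5 members were measured, the median was -0.18, 3 were lower and 0 were lower by 1.5-fold, since KLF4, KLF9 and KLF10 have only such probe sets and those left for KLF2 and KLF13 are weak. At a minimum of 7, which drops KLF7, KLF9 and KLF13, 7 members were measured and 1 was lower by 1.5-fold. Otherwise the median ran from -0.35 to -0.31. Of 52 differences of single members under these alternatives, 49 moved by at most 0.1 and 0 of those past 1.5-fold changed sign. Many of the 52 could not move by more. The level minimum does not change the probe set that stands for a gene, and centring shifts every gene by 0.04. The count is therefore no measure of robustness. KLF9 ran from -1.28 to -1.07. KLF11 was 0.0002 after centring, so it has no direction. The median of the glucocorticoid-induced list ran from -0.26 to 0.75 and that of the ligases from -0.21 to 0.03, so neither sign was settled; the reported targets ran from -0.67 to -0.11. No paired analysis was possible because each group holds 1 array.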

Other observations

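KLF15, another KLF gene that glucocorticoids induce, was under the level minimum and was picked out after its values were seen. It stood at 5.74 in siCon and 5.14 in siKMO, a difference of -0.60, or 0 with both levels taken as 6. The other KLF and SP relatives under the minimum went both ways, from -0.12 (SP6) to 0.24 (KLF8). The RNAs on the other strand beside members were weak: KLF9-DT, which starts within the KLF9 gene, stood at 3.43 and 3.32, and the 2 probe sets of KLF3-AS1 at 4.57 and 4.45 and at 2.12 and 2.21.

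Some differences of members recur to the sixth decimal in unrelated probe sets. The difference of 0.26 of the weak KLF13 probe set (2.86 and 3.12) and that of a weak KLF7 probe set (4.13 and 4.39) are the same number, which 84 probe sets of the array share. The measured KLF13 probe set shares its difference of -0.40 with others, 8 probe sets in all. A measured KLF3 probe set (6.50 and 6.15) likewise shares its difference of -0.35, with 4 probe sets in all. The levels of the leading KLF3 probe set also recur, in 3 probe sets on the siCon array and 4 on the siKMO array, itself included. By contrast, the differences of both measured KLF9 probe sets, of KLF10, and of all KLF4, KLF5 and KLF6 probe sets occur once each. A difference of exactly 0, as in 1 KLF9 and 1 KLF13 probe set, occurs in 5171 of 54675 probe sets.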
